A study of Homo sapiens with 18 samples.

Results

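The integrated stress response is a signalling pathway that slows translation when a cell lacks amino acids, carries viral RNA or holds unfolded protein, and 10 of its genes are described here across 6 groups of transfected human cells. The genes were chosen by name as ATF4, the related factor ATF5, 3 of the kinases that start the pathway (EIF2AK4, EIF2AK1 and EIF2AK2) and 5 stress-responsive genes (DDIT3, CHAC1, ADM2, PPP1R15A and PPP1R15B). All 10 were among the 37096 named genes of the deposited table, and all 10 were abundant enough to be tested among 17755 genes.

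The cells were HEK293T, a human embryonic kidney line that takes up plasmids readily, without a labelled change of genotype (WT). They were transfected with the empty vector pLEX or with MethionaseNLS, a methionine-degrading enzyme carrying a nuclear localisation signal, and poly-A RNA was sequenced. The 6 groups of 3 libraries were the vector and methionase in the vehicle DMSO at 12 h, the same in DMSO at 24 h, and both at 24 h with 5 µM Vps34-IN1, an inhibitor of the lipid kinase VPS34, present for 12 h. All groups therefore shared the cell line, the transfection and either DMSO or the drug. No group was labelled as carrying an inactive methionase, so a methionase difference is a difference from the empty vector. The labels did not say how long DMSO was present, whether the replicates were separate cultures, or how many cells took up the plasmid. The p-values therefore measure only the spread between these libraries, which may be technical. The RNA came from bulk samples, in which fewer cells expressing a gene and less RNA per cell cannot be told apart.

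In this pathway 4 kinases each answer a different stress by phosphorylating the translation factor eIF2 on its alpha subunit: EIF2AK4 (GCN2) senses uncharged tRNA, EIF2AK1 (HRI) haem shortage and mitochondrial stress, EIF2AK2 (PKR) double-stranded RNA, and EIF2AK3 (PERK) unfolded protein in the endoplasmic reticulum. Phosphorylated eIF2 holds back its exchange factor eIF2B, so most translation falls while the mRNAs of ATF4 and ATF5, which carry upstream open reading frames, are translated better. ATF4 then switches on DDIT3, which encodes the factor CHOP, and with it CHAC1, a glutathione-degrading enzyme, and many genes of amino acid supply, while PPP1R15A and PPP1R15B direct a phosphatase to eIF2 and end the response. The data are mRNA levels, so neither eIF2 phosphorylation nor ATF4 protein was measured.

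Values are normalised reads, the recovered read counts divided by a size factor for each library. Total reads per library lay between 18278586 and 20825232. Of 13 genes listed as typical of HEK293 cells, 11 averaged at least 10 normalised reads, while PAX8 (0 to 1.83) and LHX1 (2.14 to 15.0) were low. No hepatocyte or endothelial marker averaged 10 or more, and 2 of 6 fibroblast, 2 of 6 mature tubule and 1 of 5 leucocyte markers in the table did. The share of reads from the 2 mitochondrial rRNA genes was 0.24% ± 0.0455 (SD, n = 3) with the vector at 12 h, 0.548% ± 0.0954 with the vector at 24 h, 1.49% ± 0.537 with methionase at 24 h, 1.2% ± 0.192 with the vector and drug, and 2.18% ± 0.29 with both. The share from 58 histone genes, whose main mRNAs lack a poly-A tail, ordered the 24 h groups in nearly the same way, at 0.0163%, 0.0812%, 0.0776% and 0.169% on average. Both shares moved with the groups in which these genes differed, and their part in the results was not tested. Replicate 1 of methionase with drug stood apart in several of these genes, and for several results the value without it is given beside them.

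Of the 10 genes, 9 had a start region in the RefSeq table (GRCh38.p14), and the 3 shown here carry, within the 250 bases before the start, a match to 1 of 2 letter patterns linked to this pathway. The first, TGATGNAA, is the composite element bound by ATF4 with a C/EBP partner and was found on either strand in 3.14% of 35116 start regions of that length. The second, TGACGTCA, is the cAMP response element, which reads the same on both strands and was found in 1.65%. Matches are in capitals, and each sequence runs 5′ to 3′ on the strand of its gene and ends 1 base before the annotated start.
CHAC1, chr15:40953221-40953470, plus strand: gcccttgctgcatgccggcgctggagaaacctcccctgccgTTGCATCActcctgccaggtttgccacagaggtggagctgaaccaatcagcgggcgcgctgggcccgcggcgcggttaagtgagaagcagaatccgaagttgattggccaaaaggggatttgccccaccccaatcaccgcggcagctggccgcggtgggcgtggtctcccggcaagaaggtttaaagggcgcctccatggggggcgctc
PPP1R15B, chr1:204411818-204412067, minus strand: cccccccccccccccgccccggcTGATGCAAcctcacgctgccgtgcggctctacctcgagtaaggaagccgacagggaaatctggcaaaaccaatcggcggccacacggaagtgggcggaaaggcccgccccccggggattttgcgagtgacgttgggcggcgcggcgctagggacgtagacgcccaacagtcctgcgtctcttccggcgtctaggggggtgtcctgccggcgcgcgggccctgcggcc
PPP1R15A, chr19:48872171-48872420, plus strand: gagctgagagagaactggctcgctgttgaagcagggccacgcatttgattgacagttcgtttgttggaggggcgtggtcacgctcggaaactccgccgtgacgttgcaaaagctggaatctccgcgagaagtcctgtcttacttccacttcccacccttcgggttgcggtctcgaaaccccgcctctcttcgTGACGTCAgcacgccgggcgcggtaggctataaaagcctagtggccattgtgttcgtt
The CHAC1 match lay on the opposite strand, 209 to 202 bases before the start, the PPP1R15B match 227 to 220 bases before it, and the PPP1R15A match 58 to 51 bases before it. These matches are a description of letters and were looked for after the values were known. The 2 genes that carry the first pattern moved in opposite directions with methionase at 24 h, CHAC1 down and PPP1R15B up, as given with each gene's values.

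At 12 h the 10 genes did not differ detectably between methionase and vector, and at 24 h they split. Methionase at 24 h in DMSO went with more PPP1R15A, PPP1R15B and DDIT3 and less CHAC1, ADM2 and ATF5. The drug alone went with the same 6 changes in the vector cells, with PPP1R15A and DDIT3 about 4 times higher, and with small rises of ATF4 and EIF2AK1 that were lost under 7 and 8 of 13 alternatives. The ADM2 fall with the drug was lost under 5 of 13, and the DDIT3 rise with methionase under 1. Beside the drug, methionase went with less CHAC1 and ADM2 again, but with no further rise of PPP1R15A. DDIT3 and EIF2AK1 were lower in that comparison (log2 differences -0.54 and -0.23), calls lost under 6 and 1 of 13 alternatives.

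Calls rest on a limma fit of all 18 libraries with the threshold of 0.05 on the adjusted p (Benjamini-Hochberg), and log2 differences are on the deposited variance-stabilised scale, which understates changes of genes with few reads. At 12 h, 0 of the 10 genes rose and 0 fell with methionase, where 0.681% and 1.49% of all tested genes did. ATF5 and DDIT3 were at an unadjusted p below 0.05 in that comparison (0.02125 and 0.04947), and the voom fit of recovered reads also called 0. At 24 h in DMSO, 3 rose and 3 fell with methionase, against 18.1% and 21.1% of all tested genes. With the drug present, 0 rose and 4 fell with methionase, against 17.3% and 22.2%.

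The drug in vector cells raised 5 and lowered 3 of the 10 genes, against a background of 20.2% and 19.9%. In methionase cells it raised 3 and lowered 0, against 2.95% and 4.98%. From 12 h to 24 h in vector cells 3 rose and 1 fell, against 4.61% and 6.88%. Over the same time in methionase cells 3 rose and 5 fell, against 18.4% and 21.3%. The median size of the log2 difference, sign set aside, was 0.61 for the 10 genes and 0.16 for all tested genes with methionase at 24 h in DMSO, and 0.47 and 0.17 with the drug in vector cells. At 12 h these medians were 0.08 and 0.09. Comparisons at 24 h share groups, for example the vector in DMSO, so their results are not independent of each other.

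**Figure D1:**
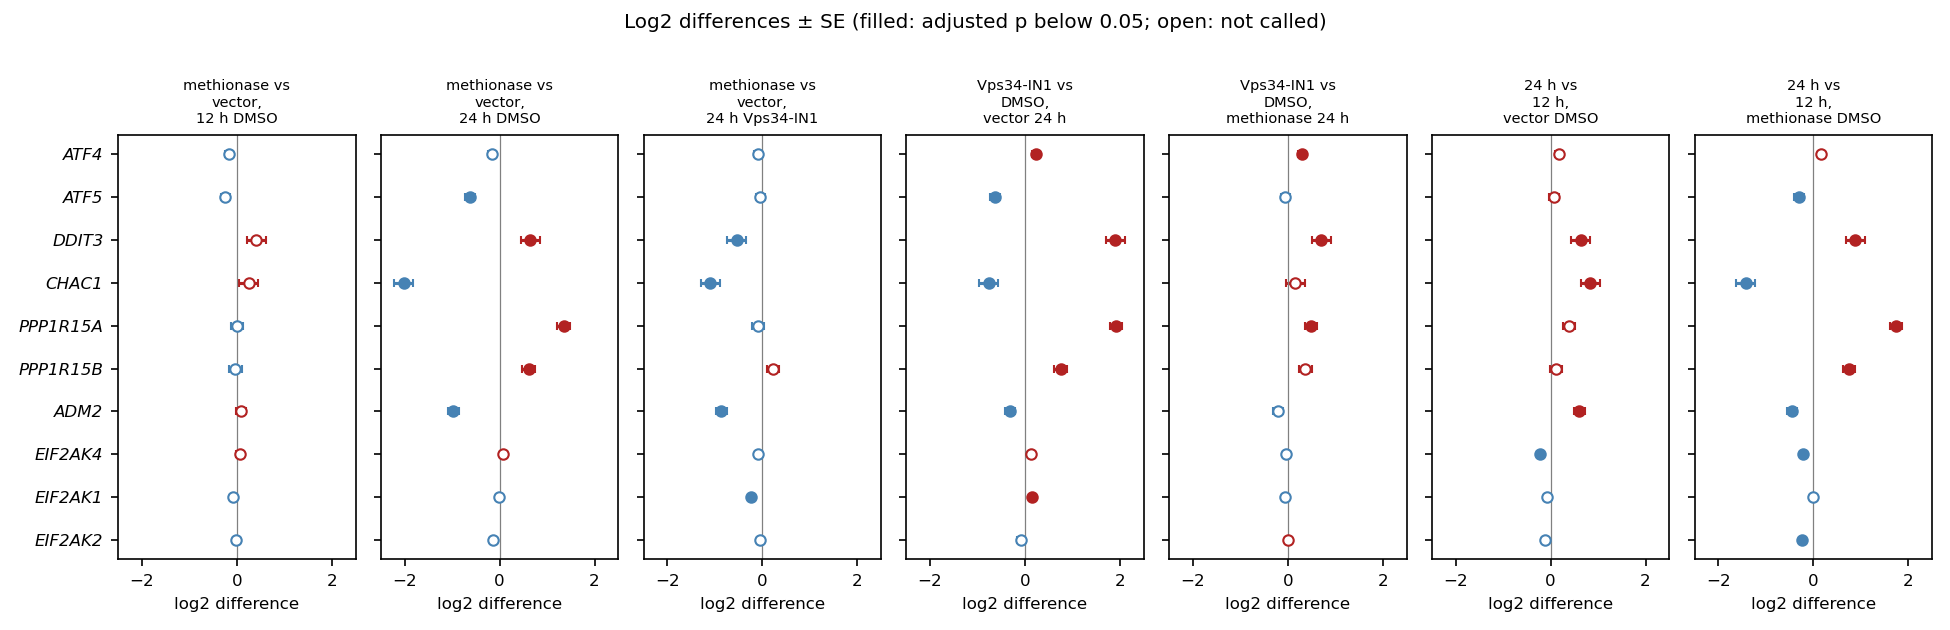
Log2 difference ± SE (x axis, variance-stabilised scale) of each of the 10 genes (y axis) in the 7 comparisons of 2 groups of 3 libraries, red for higher and blue for lower in the first-named group, filled where adjusted p was below 0.05. CHAC1 lies furthest to the left with methionase at 24 h (-2.02) and PPP1R15A furthest to the right with the drug in vector cells (1.92), while the kinases stay near 0.

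The kinases varied least. EIF2AK1, the haem-regulated kinase, was the most abundant of the 4 kinases per length, with 1054 to 1285 normalised reads per kilobase of annotated exon over the 18 libraries. EIF2AK4, the sensor of uncharged tRNA, lay between 146 and 212, EIF2AK2, the sensor of double-stranded RNA, between 112 and 156, and EIF2AK3, which is not among the 10 genes, between 38.1 and 147 per kilobase. The ranges of EIF2AK4 and EIF2AK2 overlapped, and those of EIF2AK2 and EIF2AK3 did as well.

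EIF2AK4 read 1426, 1451 and 1419 normalised reads in the vector libraries at 12 h and 1444, 1592 and 1472 with methionase. At 24 h it read 1215, 1354 and 1092 with the vector and 1426.5, 1257 and 1193 with methionase. With the drug it read 1354, 1320.5 and 1328 in vector cells and 1210.0, 1258 and 1301 in methionase cells. Each 12 h group lay above the 24 h group of the same transfection in DMSO, and the 24 h groups in DMSO overlapped each other. EIF2AK4 fell from 12 h to 24 h in both vector cells (log2 difference -0.22 ± 0.07 SE, adjusted p = 0.03949) and methionase cells (-0.21 ± 0.07, adjusted p = 0.0205). The first of these calls was lost under 7 of 13 alternatives, including without either replicate 1 or 3 of the vector at 24 h (adjusted p = 0.1174 and 0.2201), and the second under 3. EIF2AK4 was not called for methionase at 12 h (0.06 ± 0.07, adjusted p = 0.6738), at 24 h in DMSO (0.08 ± 0.07, adjusted p = 0.394) or with the drug (-0.08 ± 0.07, adjusted p = 0.3685).

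EIF2AK1 ranged from 4711 to 5741 normalised reads over all libraries. Its highest group was the vector with drug, at 5741, 5582 and 5695, and its lowest was methionase with drug, at 4711, 5029 and 4778. These groups did not overlap, and the log2 difference between them was -0.23 ± 0.06 (adjusted p = 0.003057), although quantile normalization gave -0.13 (adjusted p = 0.0577). The drug raised EIF2AK1 in vector cells by only 0.14 ± 0.06 (adjusted p = 0.04838), a call lost under 8 of 13 alternatives. EIF2AK1 overlaps AIMP2 and ANKRD61 on the other strand, and whether the counting used strand was not given in the sources used here. AIMP2 was not called in either of these comparisons (-0.19 ± 0.10, adjusted p = 0.1654, and 0.14 ± 0.10, adjusted p = 0.29). ANKRD61, a gene with few reads, was not called either (0.13 ± 0.09, adjusted p = 0.2563, and -0.01 ± 0.09, adjusted p = 0.9577).

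EIF2AK2 ranged from 1153 to 1601 normalised reads. It was lower at 24 h than at 12 h with methionase, at 1391, 1259.9 and 1153 against 1539, 1540.0 and 1452, with no overlap (-0.24 ± 0.07, adjusted p = 0.007426). Without replicate 3 of methionase at 24 h this call was lost (-0.18, adjusted p = 0.05828). It was called in none of the other 6 comparisons of 2 groups, where its log2 differences lay between -0.13 and 0.0039. EIF2AK2 overlaps GPATCH11 on the other strand, which fell more in the same comparison (-0.52 ± 0.07, adjusted p = 1.263e-06), and reads of EIF2AK2 and GPATCH11 cannot be told apart if strand was not used.

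The remaining kinase, EIF2AK3, behaved otherwise. It read 349.5, 357 and 321 normalised reads with the vector at 24 h, 219.8, 239 and 241 with methionase, 711, 632 and 678 with the vector and drug, and 184, 199.5 and 268 with both. The vector with drug stood above every other group, and the methionase groups below both 24 h vector groups. EIF2AK3 rose with the drug in vector cells (0.83 ± 0.09, adjusted p = 6.662e-08) and fell with methionase in DMSO (-0.43 ± 0.09, adjusted p = 0.000299) and beside the drug (-1.36 ± 0.09, adjusted p = 1.219e-10). The methionase effect differed between drug and DMSO by -0.92 ± 0.12 (adjusted p = 9.95e-06).

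ATF4, the central transcription factor, was by far the most abundant of the 10 mRNAs per length, with 8953 to 14144.5 normalised reads per kilobase. In DMSO at 12 h it read 28382, 26782 and 22508 normalised reads with the vector and 23068, 22986 and 23126 with methionase. Its 24 h values were 29065, 28629 and 29219.5 with the vector and 27442, 26400.1 and 23930.3 with methionase. Its values with the drug were 32036, 34588 and 35559 in vector cells and 28183, 34359.6 and 33512 in methionase cells. The 12 h groups overlapped, the 24 h groups in DMSO did not, and each drug group lay above its own DMSO group.

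The ATF4 differences were small. With methionase the log2 difference was -0.16 ± 0.08 at 24 h in DMSO and was not called (adjusted p = 0.1348), although quantile normalization called it at -0.37 (adjusted p = 0.0002975). The drug raised ATF4 1.18-fold in vector cells (0.23 ± 0.08, adjusted p = 0.0319) and 1.24-fold in methionase cells (0.30 ± 0.08, adjusted p = 0.02889). The vector call was lost under 7 of 13 alternatives, with quantile normalization turning the difference to -0.06 (adjusted p = 0.5306), and the methionase call under 6, among them 0.16 with quantile normalization (adjusted p = 0.1653). Without replicate 1 of methionase with drug the drug difference in methionase cells was 0.39 (adjusted p = 0.006219). The methionase effect did not differ detectably between drug and DMSO (0.07 ± 0.12, adjusted p = 0.729) or between 24 h and 12 h (-0.0025 ± 0.12, adjusted p = 0.9927).

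ATF5, the second factor translated through upstream reading frames, was a low mRNA that fell where methionase or the drug was present at 24 h. It read 155, 207 and 239 normalised reads with the vector at 12 h and 152, 134 and 184 with methionase. At 24 h it read 223, 206 and 208 with the vector and 124, 108 and 109.5 with methionase. With the drug it read 108, 127 and 102 in vector cells and 111, 102 and 109.5 in methionase cells. The vector libraries at 24 h all lay above 200, and the 9 libraries of the other 24 h groups lay between 102 and 127 and overlapped each other.

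Methionase lowered ATF5 1.87-fold at 24 h in DMSO (-0.62 ± 0.10, adjusted p = 2.673e-05), and the drug lowered it 1.89-fold in vector cells (-0.63 ± 0.10, adjusted p = 2.032e-05). Beside the drug methionase made no detectable difference (-0.04 ± 0.10, adjusted p = 0.7854), and the 2 methionase effects differed by 0.58 ± 0.14 (adjusted p = 0.004197). From 12 h to 24 h ATF5 fell in methionase cells (-0.30 ± 0.10, adjusted p = 0.01875), a call lost without replicate 3 of methionase at 12 h (-0.21, adjusted p = 0.1243) or without replicate 2 or 3 at 24 h (adjusted p = 0.05884 and 0.05409). ATF5 overlaps NUP62 on the other strand, which also fell with methionase at 24 h (-0.40 ± 0.07, adjusted p = 6e-05) but was not called for the drug in vector cells (-0.17 ± 0.07, adjusted p = 0.05555). ATF5 also overlaps IL4I1 and AC011452.1 on the other strand, and values of AC011452.1 are not given here. IL4I1, a gene with few reads, rose with methionase at 24 h in DMSO (0.39 ± 0.12, adjusted p = 0.01115). It also rose with the drug in vector cells (0.45 ± 0.12, adjusted p = 0.003773). Reads of ATF5 and of these overlapping genes cannot be told apart if strand was not used.

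**Figure D2:**
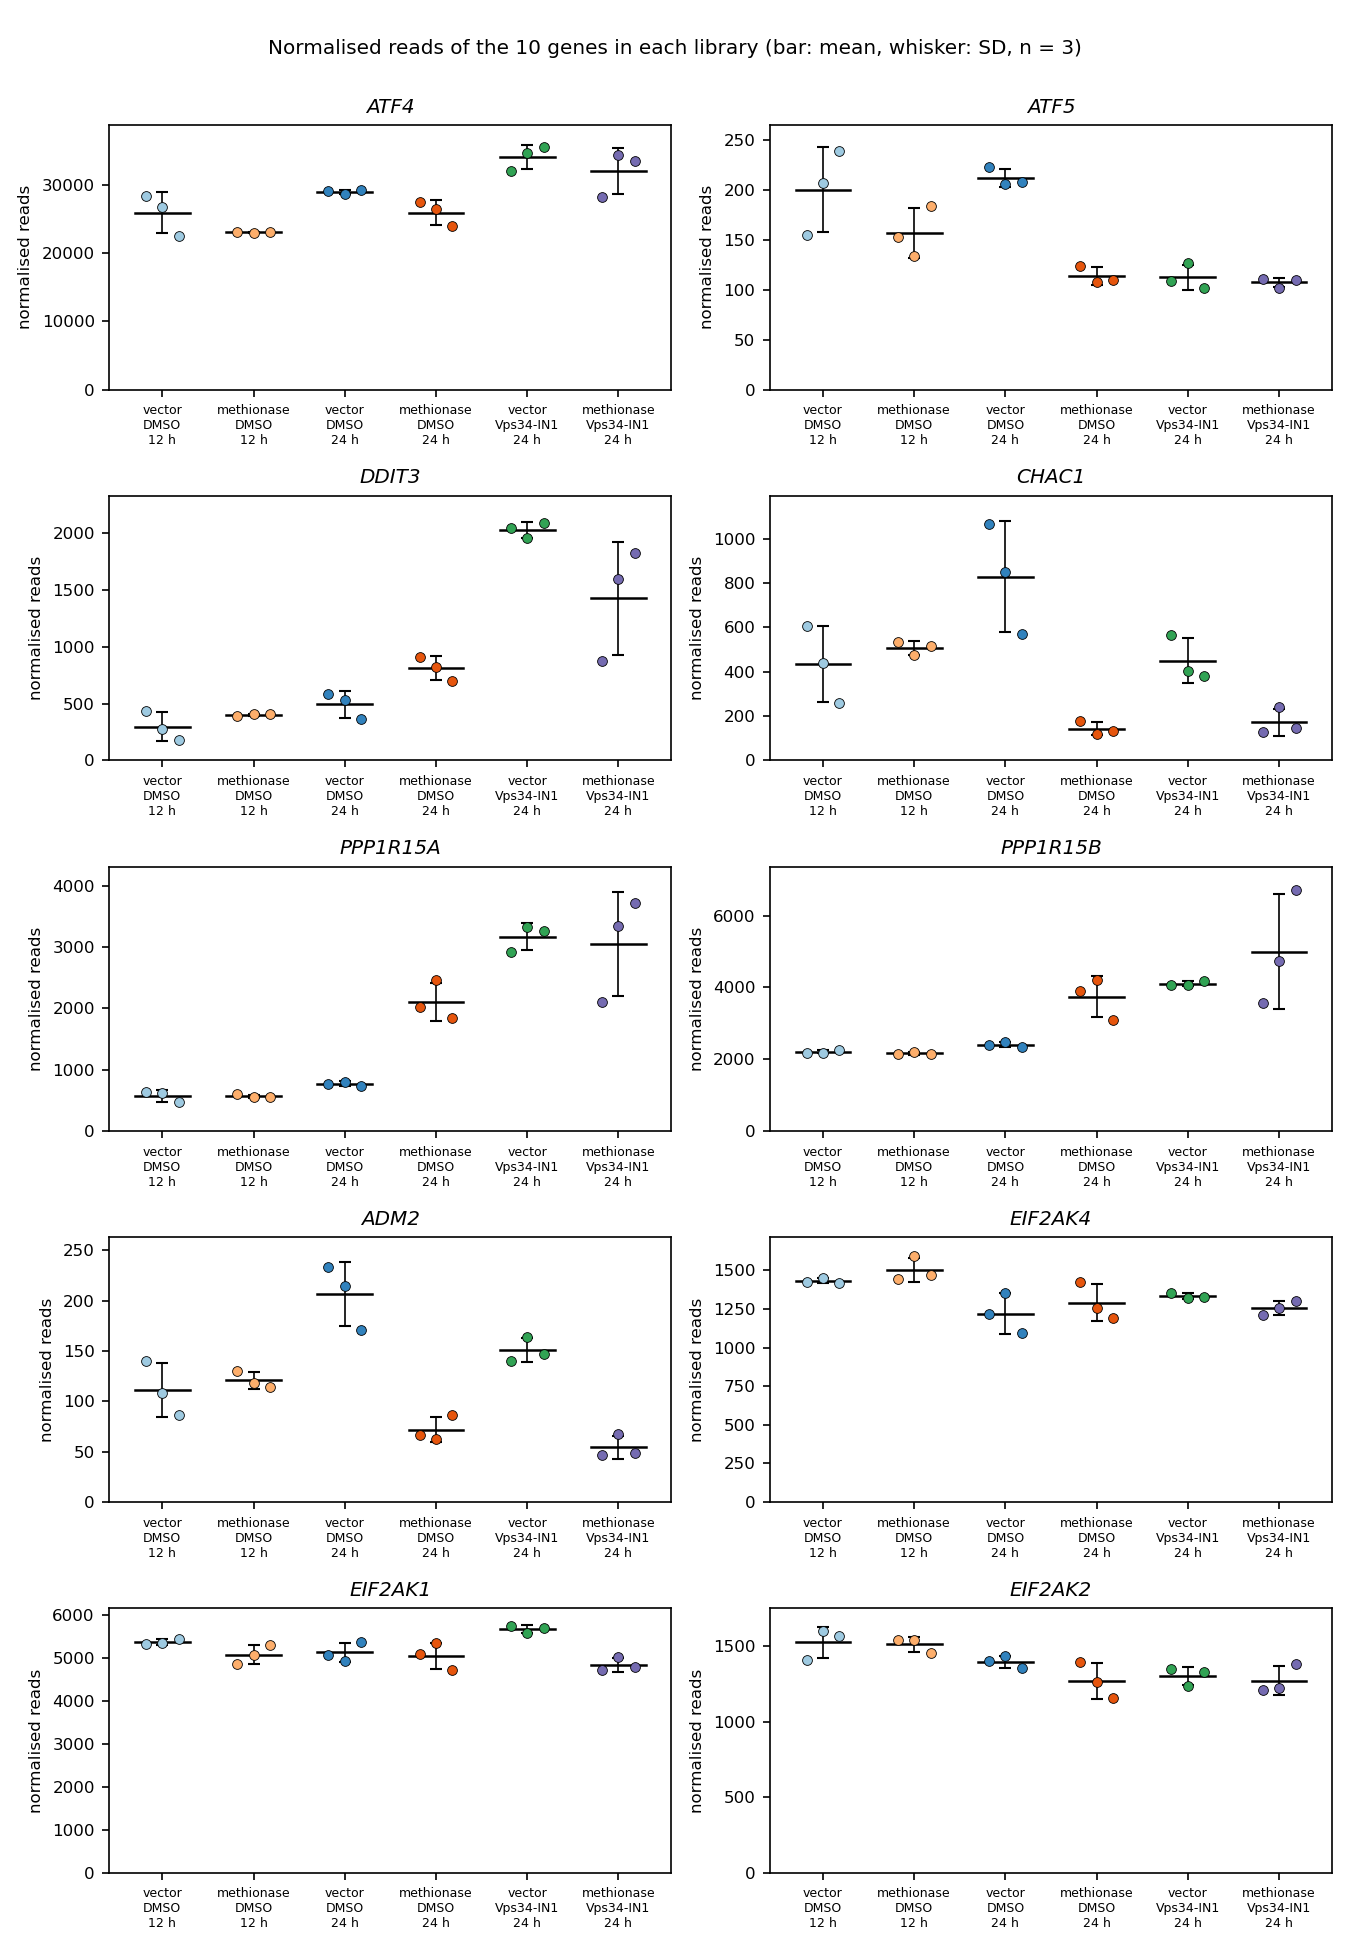
Normalised reads (y axis, from 0) of the 10 genes in the 6 groups (x axis), with 1 point a library, the mean as a bar and the SD as a whisker (n = 3). DDIT3 and PPP1R15A are high in the drug groups, CHAC1 and ADM2 are low in both methionase groups at 24 h, and the 3 kinases vary little.

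DDIT3 encodes CHOP, a transcription factor of prolonged stress. It read 436, 274 and 182 normalised reads with the vector at 12 h and 391, 405 and 408 with methionase. Its 24 h values were 583, 529 and 362 with the vector and 909, 822 and 699 with methionase. Its values with the drug were 2044, 1954 and 2092 in vector cells and 869.8, 1592 and 1822 in methionase cells. The highest group was the vector with drug, which overlapped no other, and replicate 1 of methionase with drug fell within the range of methionase without drug.

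The drug raised DDIT3 4.13-fold in vector cells (1.90 ± 0.20, adjusted p = 8.114e-08), a call kept under all 13 alternatives. Methionase raised it 1.65-fold at 24 h in DMSO (0.65 ± 0.20, adjusted p = 0.0113), and this call was lost without replicate 3 of the vector at 24 h (0.48, adjusted p = 0.08116). Beside the drug DDIT3 fell with methionase (-0.54 ± 0.20, adjusted p = 0.03232), but the call was lost under 6 of 13 alternatives, among them without replicate 1 of methionase with drug (-0.24, adjusted p = 0.308). The difference between these 2 methionase effects was -1.19 ± 0.28 (adjusted p = 0.003389) and -0.89 without that replicate (adjusted p = 0.009944).

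Time also moved DDIT3. It was 2.02-fold higher at 24 h than at 12 h with methionase (0.88 ± 0.20, adjusted p = 0.001112) and 1.65-fold higher with the vector (0.64 ± 0.20, adjusted p = 0.03789). The vector groups overlapped, and without replicate 3 of the vector at 12 h the vector difference was 0.40 (adjusted p = 0.263). In methionase cells the drug raised DDIT3 1.76-fold (0.70 ± 0.20, adjusted p = 0.0288), a call lost under 5 alternatives, with adjusted p = 0.1346 without replicate 3 of methionase with drug. Without replicate 1 of that group the difference was larger (1.01, adjusted p = 0.0008618). The DDIT3 gene overlaps MARS1 and MBD6, which lie on the other strand, and AC022506.1, which lies on its own strand and whose values are not given here. MARS1 was not called for the drug in vector cells (0.01 ± 0.06, adjusted p = 0.8907), and MBD6 rose by 0.22 ± 0.07 (adjusted p = 0.01219). With methionase at 24 h in DMSO MARS1 fell (-0.28 ± 0.06, adjusted p = 0.0006857) and MBD6 rose (0.25 ± 0.07, adjusted p = 0.005326).

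CHAC1 encodes a gamma-glutamyl cyclotransferase that breaks down glutathione, and at 24 h it was lowest where methionase was present. It read 606, 438 and 259.9 normalised reads with the vector at 12 h and 532, 473 and 516 with methionase. At 24 h it read 1067, 848 and 571 with the vector and 176, 120.0 and 132 with methionase. With the drug it read 566, 402 and 378 in vector cells and 126, 239 and 147 in methionase cells. The 6 methionase libraries at 24 h were the 6 lowest of all 18, and they overlapped no vector library.

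The size of the CHAC1 fall at 24 h was 5.81-fold by the means, from 829 ± 248 to 142 ± 29.3 (SD, n = 3), and its limma call (adjusted p = 4.239e-08) was kept under all 13 alternatives. The voom fit of recovered reads, which does not compress low counts, gave -2.51 (adjusted p = 4.817e-07) where the deposited scale gave -2.02 ± 0.20. With the drug present methionase lowered CHAC1 2.63-fold (-1.10 ± 0.20, adjusted p = 0.0001359). The drug by itself lowered it 1.85-fold in vector cells (-0.76 ± 0.20, adjusted p = 0.004083), and in methionase cells it made no detectable difference (0.16 ± 0.20, adjusted p = 0.6891).

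CHAC1 diverged over time. From 12 h to 24 h it rose 1.91-fold with the vector (0.84 ± 0.20, adjusted p = 0.008925) and fell 3.56-fold with methionase (-1.42 ± 0.20, adjusted p = 6.171e-06). The rise was lost without replicate 3 of the vector at 12 h (0.57, adjusted p = 0.09145) and without replicate 1 of the vector at 24 h (0.65, adjusted p = 0.08063). The methionase effect at 24 h differed from that at 12 h by -2.26 ± 0.28 (adjusted p = 1.764e-05). It also differed between drug and DMSO, by 0.92 ± 0.28 (adjusted p = 0.02256), but this was lost under 7 of 19 alternatives, including voom (1.08, adjusted p = 0.06692) and leaving out replicate 1 of the vector in DMSO at 24 h (0.73, adjusted p = 0.08319).

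The ratio of CHAC1 to DDIT3 reads was taken within each library. It was 1.39, 1.6 and 1.43 with the vector at 12 h, 1.36, 1.17 and 1.27 with methionase at 12 h, and 1.83, 1.6 and 1.58 with the vector at 24 h. In these 9 libraries CHAC1 ranged from 259.9 to 1067 normalised reads. The ratio was 0.193, 0.146 and 0.189 with methionase at 24 h, 0.277, 0.206 and 0.181 with the vector and drug, and 0.145, 0.15 and 0.0805 with both. These 9 libraries did not overlap the 9 others. The ratio was chosen after the values were seen and has no test of its own.

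**Figure D3:**
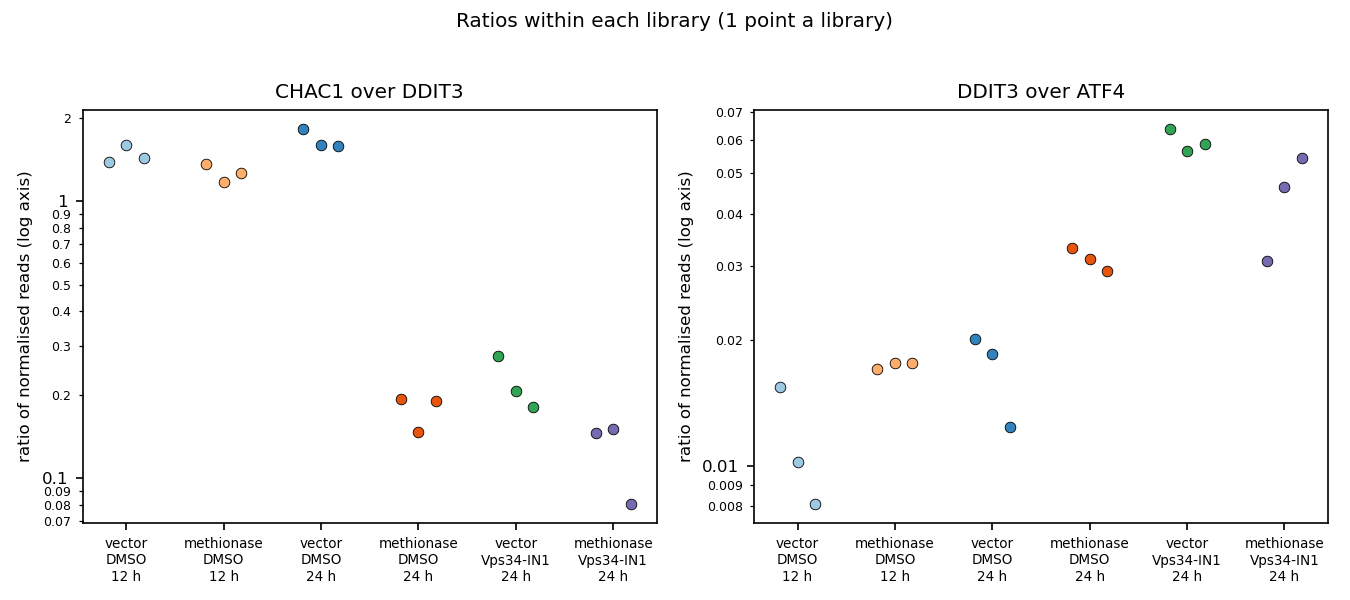
Ratios of normalised reads within each library (y axes, log scale) in the 6 groups (x axis), 1 point a library, for CHAC1 over DDIT3 (left) and DDIT3 over ATF4 (right). On the left the 12 h groups and the vector in DMSO at 24 h lie between 1.17 and 1.83 and the other groups between 0.0805 and 0.277, and on the right the ratio runs from 0.0081 with the vector at 12 h to 0.0638 with the vector and drug.

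The ratio of DDIT3 to ATF4 reads was 0.0112 ± 0.00373 (SD, n = 3) with the vector at 12 h, 0.017 ± 0.00406 with the vector at 24 h and 0.0312 ± 0.00197 with methionase at 24 h. With methionase at 12 h it was 0.0174 ± 0.000387, above every vector library at 12 h and within the range of the vector at 24 h. It was 0.0597 ± 0.00372 with the vector and drug and 0.0439 ± 0.012 with both. All methionase and drug libraries at 24 h lay above every vector library in DMSO.

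ADM2, a peptide hormone gene (adrenomedullin 2, or intermedin) that ATF4 can activate, moved the same way as CHAC1 wherever both were called. With methionase at 24 h in DMSO its fall was smaller than that of CHAC1. ADM2 read 139.6, 108 and 86 normalised reads with the vector at 12 h and 130.1, 118 and 114 with methionase. Its 24 h values were 233, 215 and 171 with the vector and 66.8, 62.1 and 85.9 with methionase. Its values with the drug were 140.4, 164 and 147 in vector cells and 46.3, 67.6 and 48.5 in methionase cells. The vector groups at 24 h overlapped neither each other nor the methionase groups, and the 2 methionase groups overlapped.

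Methionase lowered ADM2 2.88-fold at 24 h in DMSO (-0.97 ± 0.11, adjusted p = 1.721e-07) and 2.78-fold beside the drug (-0.86 ± 0.11, adjusted p = 1.178e-06). With voom these differences were -1.52 and -1.48. The methionase effect did not differ detectably between drug and DMSO (0.11 ± 0.15, adjusted p = 0.6588), but at 24 h it differed from that at 12 h by -1.06 ± 0.15 (adjusted p = 7.324e-05), or -1.66 with voom. ADM2 rose 1.86-fold over time with the vector (0.61 ± 0.11, adjusted p = 0.0007592) and fell 1.69-fold with methionase (-0.45 ± 0.11, adjusted p = 0.001865, and -0.76 with voom). The drug lowered it 1.37-fold in vector cells (-0.32 ± 0.11, adjusted p = 0.02092), a call lost under 5 of 13 alternatives, among them without replicate 1 of the vector in DMSO (-0.25, adjusted p = 0.1156).

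PPP1R15A (GADD34) is the inducible and PPP1R15B (CReP) the constitutive subunit that brings protein phosphatase 1 to eIF2, and both rose where methionase or the drug was present at 24 h. PPP1R15A read 632, 621 and 468 normalised reads with the vector at 12 h and 601, 557 and 550.4 with methionase. At 24 h it read 775, 808 and 736 with the vector and 2022, 2455 and 1846 with methionase. With the drug it read 2921, 3332 and 3256 in vector cells and 2102, 3337 and 3716 in methionase cells. The 12 h and 24 h vector libraries in DMSO all lay below every methionase or drug library at 24 h.

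PPP1R15A rose 2.73-fold with methionase at 24 h in DMSO (1.35 ± 0.13, adjusted p = 4.358e-08) and 4.1-fold with the drug in vector cells (1.92 ± 0.13, adjusted p = 1.645e-10). Both calls were kept under all 13 alternatives. Beside the drug methionase made no detectable difference (-0.09 ± 0.13, adjusted p = 0.6266, and 0.15 without replicate 1 of methionase with drug, adjusted p = 0.2799). The 2 methionase effects differed by -1.44 ± 0.19 (adjusted p = 1.055e-05). In methionase cells the drug raised PPP1R15A 1.45-fold (0.49 ± 0.13, adjusted p = 0.02597), a call lost under 6 of 13 alternatives, with adjusted p = 0.1168 when only these groups were fitted. Without replicate 1 of methionase with drug this difference was larger (0.73, adjusted p = 0.0001077).

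PPP1R15B read 2182, 2189 and 2255 normalised reads with the vector at 12 h and 2136, 2209 and 2153 with methionase. Its 24 h values were 2389, 2482 and 2346 with the vector and 3910.0, 4202 and 3105 with methionase. Its values with the drug were 4059, 4072 and 4179.5 in vector cells and 3556, 4724 and 6719 in methionase cells. The methionase libraries with drug spread widest of all groups and overlapped both the vector with drug and methionase in DMSO.

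PPP1R15B rose 1.55-fold with methionase at 24 h in DMSO (0.61 ± 0.13, adjusted p = 0.0005909) and 1.71-fold with the drug in vector cells (0.75 ± 0.13, adjusted p = 5.919e-05), both kept under all 13 alternatives. Beside the drug methionase was not called (0.23 ± 0.13, adjusted p = 0.1576), but it was without replicate 1 of methionase with drug (0.45, adjusted p = 0.002035), while without replicate 3 the difference was -0.0013. The drug in methionase cells was likewise called for PPP1R15B (0.37 ± 0.13, adjusted p = 0.07311) only under 3 alternatives, among them without that replicate 1 (0.59, adjusted p = 0.001044). Over time in methionase cells PPP1R15A rose 3.7-fold (1.74 ± 0.13, adjusted p = 1.573e-09) and PPP1R15B 1.73-fold (0.75 ± 0.13, adjusted p = 6.208e-05). In vector cells neither was called (0.39 ± 0.13, adjusted p = 0.05873, and 0.12 ± 0.13, adjusted p = 0.601). The methionase effect grew between 12 h and 24 h by 1.35 ± 0.19 for PPP1R15A (adjusted p = 6.58e-05) and by 0.63 ± 0.18 for PPP1R15B (adjusted p = 0.02498), the latter lost under 6 of 19 alternatives.

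Counted over the 10 genes, the methionase effect differed between drug and DMSO for 4: higher for ATF5 and CHAC1 (9.92% of all tested genes were called higher) and lower for PPP1R15A and DDIT3 (11.9% called lower). Between 24 h and 12 h it differed for 4: higher for PPP1R15A and PPP1R15B (against 5.33%) and lower for ADM2 and CHAC1 (against 6.33%). For ATF4 and the 3 kinases neither difference was called.

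Of the 10 genes, 5 formed 2 sets that varied together across the 18 libraries, which share the 6 groups and a single batch label. Pearson's r was 0.92 for CHAC1 with ADM2, 0.96 for PPP1R15A with PPP1R15B and 0.94 for DDIT3 with PPP1R15A. It was -0.28 for CHAC1 with DDIT3 and -0.55 for CHAC1 with PPP1R15A. ATF4 lay nearer the DDIT3 set (0.82 with DDIT3, 0.02 with CHAC1). ATF5 ran against PPP1R15A (-0.83) and only partly with CHAC1 (0.62), EIF2AK4 was nearest to EIF2AK2 (0.70), and EIF2AK1 had no r above 0.38 with any of the others. These are descriptions over libraries that fall into groups, with no test.

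**Figure D4:**
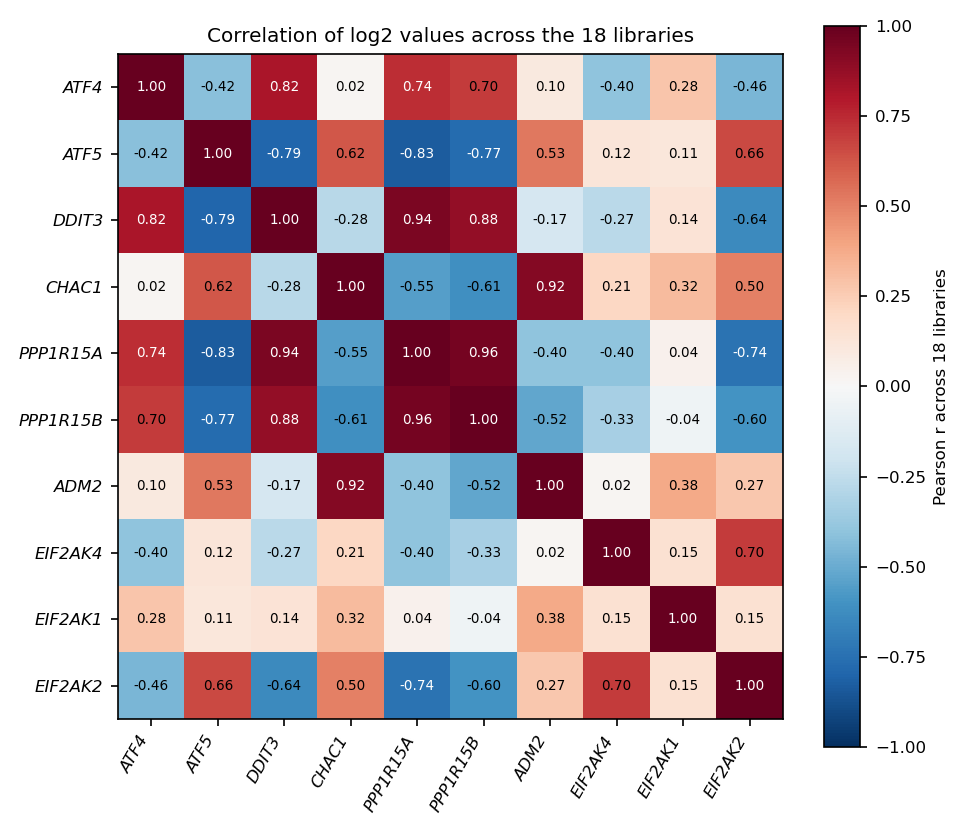
Pearson's r of the log2 values of each pair of the 10 genes across the 18 libraries (colour scale from -1 to 1, both axes list the genes). DDIT3, PPP1R15A and PPP1R15B form a block with r of 0.88 or more, and CHAC1 and ADM2 (0.92) form another.

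Over all tested genes, the 3 whose log2 values were most like those of DDIT3 across the 18 libraries were TSC22D3 (r = 0.985), PMAIP1 (0.981) and CCDC9 (0.975). For CHAC1 they were LRRC8D (0.933), ADM2 (0.921) and XPC (0.918). For ATF4 they were PPCDC (0.917), SMG9 (0.912) and FOSL2 (0.896). TSC22D3, a glucocorticoid-induced leucine zipper gene, averaged 24054 normalised reads with the vector at 24 h and 93775 with the drug. PMAIP1, which encodes the pro-apoptotic protein NOXA, averaged 4279.6 and 16450.1, and LRRC8D, a subunit of a volume-regulated anion channel, averaged 761 with the vector and 416 with methionase at 24 h in DMSO.

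The wider set of ATF4 and CHOP target genes, 49 tested of 50 listed and none of them among the 10, was mostly lower with methionase. At 24 h in DMSO 6 rose and 29 fell, with a median log2 difference of -0.22 against 0.01 for all tested genes, of which 18.1% rose and 21.1% fell. Beside the drug 0 rose and 29 fell, with a median of -0.25, where 17.3% and 22.2% of all tested genes did. With the drug in vector cells 14 rose and 11 fell (median 0.05, background 20.2% and 19.9%). The drug in methionase cells gave 1 risen and 2 fallen (median 0.02, background 2.95% and 4.98%), and methionase at 12 h 0 and 0 (median -0.08, background 0.681% and 1.49%). From 12 h to 24 h 11 rose and 1 fell with the vector (median 0.15, background 4.61% and 6.88%), and 10 rose and 18 fell with methionase (median -0.06, background 18.4% and 21.3%).

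Single targets went both ways. ATF3, a stress-induced repressor, read 2765, 2855 and 2038 normalised reads with the vector at 24 h, 18061, 14043 and 11735 with methionase, 30088, 34719.9 and 36597 with the vector and drug, and 12602, 25644 and 26235 with both. It rose 5.72-fold with methionase in DMSO (2.47 ± 0.22, adjusted p = 9.471e-09) and 13.2-fold with the drug (3.69 ± 0.22, adjusted p = 1.216e-11), and the methionase effect differed between drug and DMSO by -3.19 ± 0.31 (adjusted p = 2.322e-07). ASNS, asparagine synthetase, rose with methionase at 24 h in DMSO (0.55 ± 0.14, adjusted p = 0.003721) and with the drug (0.86 ± 0.14, adjusted p = 4.184e-05).

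TRIB3, a pseudokinase that restrains ATF4, was lower with methionase at 24 h. It read 1139, 1141 and 805 normalised reads with the vector at 24 h and 698, 438 and 585 with methionase, with no overlap. It fell with methionase in DMSO (-0.76 ± 0.15, adjusted p = 0.0002738) and beside the drug (-1.02 ± 0.15, adjusted p = 1.062e-05) and was not called for the drug in vector cells (0.04 ± 0.15, adjusted p = 0.8507). The glycine transporter gene SLC6A9 fell with methionase at 24 h in DMSO (-1.01 ± 0.08) and with the drug in vector cells (-0.72 ± 0.08). The amino acid transporter gene SLC38A2 fell with methionase beside the drug (-0.86 ± 0.09).

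**Figure D5:**
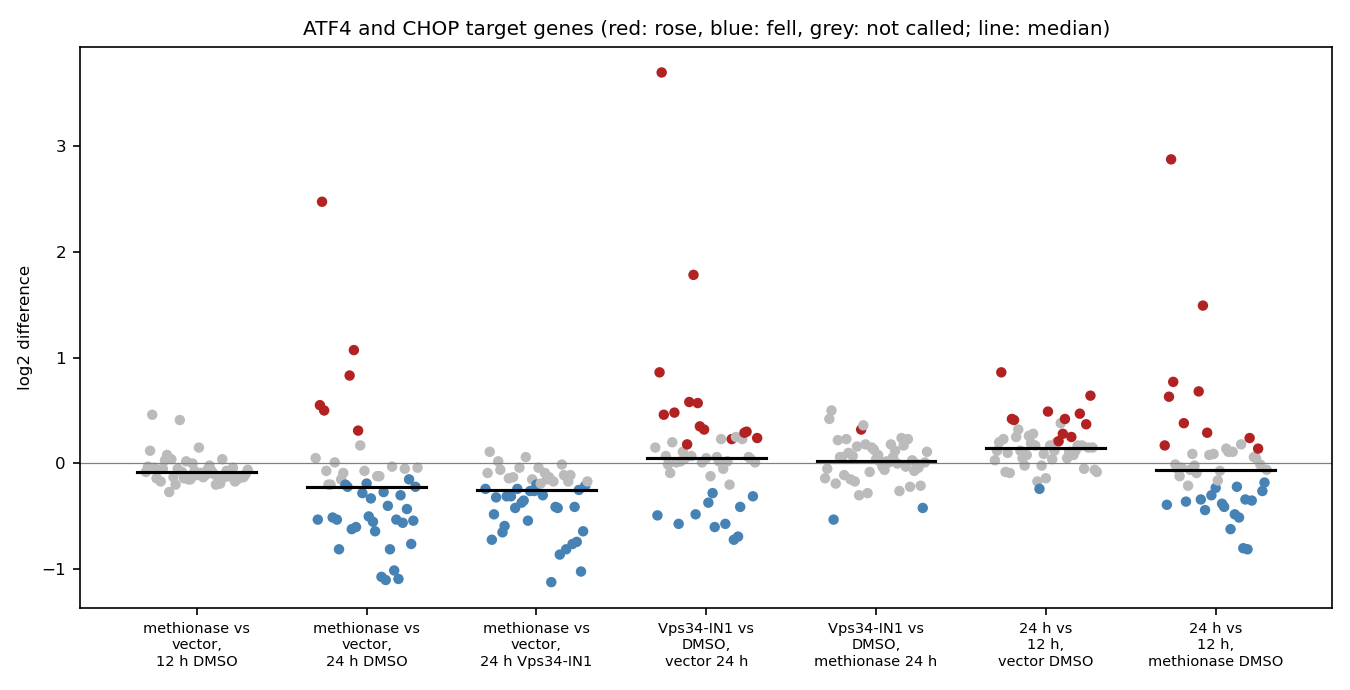
Log2 differences (y axis) of the 49 tested ATF4 and CHOP target genes in the 7 comparisons of 2 groups (x axis), 1 point a gene, red where it rose, blue where it fell and grey where it was not called, with the median as a line. With methionase at 24 h 29 points are blue both in DMSO and with the drug, and the highest point with the drug in vector cells is ATF3 (3.69).

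Among 12 possible dimer partners of ATF4 and CHOP, which bind DNA as pairs of leucine zipper proteins, 5 rose and 4 fell with methionase at 24 h in DMSO (background 18.1% and 21.1%) and 6 rose and 4 fell with the drug in vector cells (20.2% and 19.9%). Beside the drug 2 rose and 6 fell with methionase (17.3% and 22.2%). JUN, an AP-1 subunit, rose by 2.17 ± 0.14 with methionase in DMSO and 3.12 ± 0.14 with the drug in vector cells, but with methionase beside the drug it fell (-0.91 ± 0.14, adjusted p = 1.819e-05). It was the only one of them called at 12 h (0.86 ± 0.14, adjusted p = 0.002608). JDP2, an AP-1 repressor, fell with methionase (-0.60 ± 0.10), and CEBPA, a C/EBP factor, fell with the drug (-0.68 ± 0.10).

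Of 8 genes that control ATF4 protein stability, 0 rose and 6 fell with methionase at 24 h in DMSO (median -0.34, background 18.1% and 21.1%). With methionase beside the drug 0 rose and 4 fell (median -0.29, background 17.3% and 22.2%), with the drug in vector cells 0 and 3 (median -0.12, background 20.2% and 19.9%), and with the drug in methionase cells 0 and 4 (median -0.21, background 2.95% and 4.98%). BTRC, the ubiquitin ligase subunit that recognises phosphorylated ATF4, fell with methionase (-0.73 ± 0.07 in DMSO and -0.58 ± 0.07 beside the drug), and EGLN3, a prolyl hydroxylase, fell with the drug in vector cells (-1.28 ± 0.13).

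For the lists upstream of ATF4 the same shares of all tested genes apply: 18.1% rose and 21.1% fell with methionase in DMSO at 24 h, 17.3% and 22.2% with methionase beside the drug, 20.2% and 19.9% with the drug in vector cells, and 2.95% and 4.98% with the drug in methionase cells. Of the 11 genes of eIF2, its exchange factor and its start-site partners, 2 rose and 2 fell with methionase in DMSO, which is near those shares, and 3 rose and 3 fell with methionase beside the drug. With the drug 4 rose and 0 fell both in vector and in methionase cells, but only EIF2B3 was among the 4 in each. EIF5, which activates GTP hydrolysis by eIF2, fell with methionase in DMSO (-1.0 ± 0.10) and beside the drug (-0.59 ± 0.10), and EIF2B3, a subunit of eIF2B, rose in both (0.28 ± 0.07 and 0.27 ± 0.07).

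Of 12 partners of the kinases and phosphatases, 3 rose and 4 fell with methionase in DMSO and 0 rose and 6 fell with methionase beside the drug. With the drug 7 rose and 0 fell in vector cells and 0 and 0 in methionase cells. IMPACT, an inhibitor of EIF2AK4, fell with methionase in DMSO and beside the drug (-0.40 ± 0.07 and -0.32 ± 0.07). NCK1, an adaptor, rose with methionase in DMSO (0.54 ± 0.08) but was not called beside the drug (0.06 ± 0.08, adjusted p = 0.6228).

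Of 6 factors of reinitiation and alternative starts, 4 rose and 2 fell with methionase in DMSO at 24 h and 0 and 0 beside the drug. With the drug 4 rose and 0 fell in vector cells and 0 and 0 in methionase cells. The genes named by the rule were EIF2D (0.20 ± 0.06) and DENR (-0.26 ± 0.07) with methionase in DMSO and MCTS1 (0.29 ± 0.06) with the drug in vector cells.

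Of 12 tested genes of glutathione synthesis and breakdown, the pathway that CHAC1 acts on, 3 rose and 4 fell with methionase at 24 h in DMSO (background 18.1% and 21.1%) and 4 rose and 2 fell with the drug in vector cells (20.2% and 19.9%). SLC7A11, the cystine importer, fell in both (-1.09 ± 0.12 and -0.69 ± 0.12), and GPX1, a glutathione peroxidase, rose in both (0.52 ± 0.08 and 0.39 ± 0.08). With the drug in methionase cells 0 rose and 0 fell (2.95% and 4.98%), and with methionase beside the drug 3 rose and 2 fell (17.3% and 22.2%). GGT1, which breaks down glutathione outside the cell, rose by 0.65 ± 0.08 with methionase beside the drug. In the same comparison GCLC, the catalytic subunit of the first synthesis step, fell by 0.49 on the log2 scale.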

How the data were processed

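Poly-A RNA of 18 HEK293T libraries in 6 groups of 3 was sequenced after a dUTP library preparation, per the labels' protocols. The tools named, per the submitters' processing notes, are featureCounts, STAR 2.7.10b, limma and DESeq2, with hg38 as the build and no role given; for the counting, annotation and strand setting are not given in the sources used here. The table deposited by the authors holds variance-stabilised log2 values (lowest 5.45, highest 18.8). Of 37097 lines 1 named no gene (at most 0.0022% of reads) and was left out.

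The transformation was inverted: 100% of the values came within 0.01 of a whole read, which gave counts, size factors (0.89 to 1.09, scaled to a geometric mean of 1) and normalised reads. Total reads were 18278586 to 20825232. No 2 replicates were closer than a chi-square of 2.52 per gene, so none was treated as a copy. Symbols were matched to RefSeq tables of GRCh38.p14 (36162 matched), and exon lengths came from GENCODE.

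A limma 3.58.1 model (R 4.3.3) with a mean for each group and a variance trend was fitted to the deposited log2 values of 17755 genes whose mean was at least 0.5 above the lowest value. The threshold was 0.05 on the adjusted p (Benjamini-Hochberg, separately in each of 9 comparisons). The script was tested on simulated data. All libraries carried a single batch label. Same-numbered replicates did not deviate together (r between -0.31 and 0.35), so they were not paired.

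The 10 genes and the 7 gene lists were chosen with earlier results of these data known, so no count over them is independent support. All 10 were reported in every comparison; from each list the called gene of lowest adjusted p in each direction could be named, together with ATF3, TRIB3, ASNS, EIF2AK3 and the 3 genes most like ATF4, CHAC1 and DDIT3. Overlapping genes and the ratios were named after their values were seen. Alternatives were no filter, a stricter filter at 1 (14322 genes), quantile normalization, equal library medians, only the groups compared, a replicate block, voom on the recovered counts and each replicate left out.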

Additional observations from a re-analysis of the deposited data

Results flagged for a closer look

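The effect of methionase on 4 of the 10 genes differed between drug and DMSO at 24 h by the interaction term of the limma fit. Of all tested genes 9.92% were called higher and 11.9% lower by this term. The difference was -1.44 for PPP1R15A, whose reads rose 2.73-fold in DMSO and did not change detectably with the drug. For DDIT3 it was -1.19, with a log2 difference of 0.65 in DMSO (not called without replicate 3 of the vector) and -0.54 beside the drug (-0.24, adjusted p = 0.308, without replicate 1 of methionase with drug); the difference itself was kept under all 19 alternatives. For ATF5 it was 0.58, with a fall in DMSO and levels of 102 to 127 normalised reads in both drug groups. For CHAC1 it was 0.92, with a fall of 5.81-fold in DMSO and 2.63-fold beside the drug, and this difference was lost under 7 of 19 alternatives, voom among them (adjusted p = 0.06692).

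The methionase effect on 4 genes also differed between 24 h and 12 h in DMSO, where 5.33% of all tested genes were called higher and 6.33% lower. The difference was -2.26 for CHAC1 and -1.06 for ADM2, both of which were lower with methionase at 24 h. It was 1.35 for PPP1R15A and 0.63 for PPP1R15B, both of which were higher, and the PPP1R15B difference was lost under 6 of 19 alternatives. The mitochondrial rRNA share differed in the same groups, at 0.355% with methionase at 12 h and 1.49% at 24 h, and its part in these differences was not tested.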

How the results depend on the processing

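Of 41 calls among 90 tests of the 10 genes, 24 were kept under every alternative run. The share of calls kept in this way over all tested genes is not given here, so this count is not a result about these genes in particular. With quantile normalization, signs changed for PPP1R15A (0.02), PPP1R15B (0.05), EIF2AK1 (0.003) and EIF2AK2 (0.05) with methionase at 12 h, for PPP1R15A (0.01), EIF2AK4 (0.04) and EIF2AK2 (0.09) with methionase beside the drug, for ATF4 with the drug in vector cells (-0.06) and over time in methionase cells (-0.05), for EIF2AK1 over time in vector cells (0.02) and between times (-0.04), and for ADM2 between drug and DMSO (-0.01). With voom PPP1R15A at 12 h was 0.0019. With equal library medians signs changed for EIF2AK1 with methionase at 24 h (0.02) and over time in methionase cells (0.02), for EIF2AK4 with the drug in methionase cells (0.0033) and for ATF4 between times (0.05). Of these only ATF4 with the drug in vector cells had been called, and the cause was not tested.

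The count of the 10 genes called for the drug in vector cells went from 8 to 5 with quantile normalization, where that of all tested genes went from 7122 to 6799 of 17755. For the drug in methionase cells the count of the 10 went from 3 to 0 with no filter. It went to 1 when only the groups compared were fitted. The cause of either fall was not tested. Over all genes the calls for the drug in methionase cells went from 1408 of 17755 to 1041 of 37096 and to 296 of 17755. Over time in vector cells the count of the 10 went from 4 to 2 with no filter, and that of all genes from 2039 of 17755 to 1290 of 37096. For a replicate left out, the calls over all genes are not given here. Leaving out 1 replicate in turn gave 5 to 7 for the drug in vector cells (5 without replicate 1 in DMSO or replicate 3 with drug), 0 to 4 for the drug in methionase cells (0 without replicate 3 in DMSO or without replicate 2 or 3 with drug), 1 to 3 over time in vector cells (1 without replicate 3 at 12 h or replicate 1 at 24 h, 2 without replicate 2 at 12 h) and 5 to 8 over time in methionase cells (5 without replicate 3 at 24 h).

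Leaving out 1 replicate in turn also changed signs of differences that were not called. The ranges were -0.02 to 0.48 for CHAC1, -0.12 to 0.07 for PPP1R15A, -0.02 to 0.20 for ADM2 and -0.06 to 0.02 for EIF2AK2 with methionase at 12 h, and -0.06 to 0.02 for EIF2AK1 at 24 h. With methionase beside the drug they were -0.08 to 0.02 for ATF5, -0.25 to 0.15 for PPP1R15A and -0.0013 to 0.45 for PPP1R15B. With the drug in methionase cells they were -0.03 to 0.29 for CHAC1, -0.09 to 0.03 for EIF2AK4 and -0.06 to 0.07 for EIF2AK2. Over time they were -0.05 to 0.18 for ATF5 in vector cells and -0.05 to 0.04 for EIF2AK1 in methionase cells. Between times they were -0.07 to 0.09 for ATF4, -0.01 to 0.48 for DDIT3 and -0.06 to 0.09 for EIF2AK4.

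A replicate block, with the shared numbers as a term, left 7 of 8 calls for the drug in vector cells, losing EIF2AK1 (adjusted p = 0.06106), and gave the same number of calls in the other comparisons. Calls over all genes went from 7122 to 7076 of 17755 for the drug in vector cells and from 2039 to 1971 over time in vector cells. Over all genes, equal library medians changed the split of higher and lower calls from 3595 and 3527 to 4544 and 2831 for the drug in vector cells, from 523 and 885 to 899 and 605 in methionase cells, from 818 and 1221 to 640 and 1668 over time in vector cells and from 947 and 1124 to 1431 and 722 between times. Quantile normalization changed it from 121 and 264 to 90 and 95 with methionase at 12 h. At 46.3 to 239 normalised reads, ADM2, ATF5 and low CHAC1 values are those that depth limits most, and voom gave larger differences there.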
